A study of Mus musculus with 9 samples.

Results

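The IFIT genes (interferon-induced proteins with tetratricopeptide repeats) were followed in RNA of CD8+ T cells from the spleen, killer lymphocytes that recognise infected or tumour cells. The 6 mouse members Ifit1, Ifit1bl1, Ifit1bl2, Ifit2, Ifit3 and Ifit3b were taken by symbol, from 18188 genes listed in each library. The series holds 9 poly(A) RNA libraries of Mus musculus spleen, 5 labelled WT and 4 labelled Rig1 KO, a knockout of the gene for the viral RNA sensor RIG-I. The labels name no other allele or treatment, and give no strain, age, sex or purification. They do not say how the knockout was made, whether it covers all cells, or whether the libraries come from separate animals, so a p-value here measures the spread between these libraries, which may be technical.

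IFIT proteins are cytosolic RNA-binding proteins built almost entirely of tetratricopeptide repeats. In most resting cells their genes are expressed weakly, and type I interferon switches them on through the receptor IFNAR, the kinases JAK1 and TYK2 and the transcription factor complex ISGF3. ISGF3 binds the interferon-stimulated response element in their promoters, and IRF3, which is activated downstream of RIG-I, can bind the same element. The Ifit1 protein holds viral RNA that lacks the host's cap methylation and keeps it from being translated, and several IFIT proteins also bind one another.

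The family formed 1 uninterrupted group of 6 protein-coding genes on chromosome 19, in the order Ifit2, Ifit3, Ifit1bl1, Ifit3b, Ifit1bl2 and Ifit1 over 99.3 kb in the GENCODE annotation of GRCm38. Ifit1bl1 and Ifit1bl2 lie on the minus strand and the other 4 on the plus strand. Promoter windows from 250 bases before to 50 bases after each annotated start were found for all 6 members in the RefSeq table of GRCm38.p6, an older build than the mm39 named in the submitters' processing notes. They were searched for GAAANNGAAA and its reverse complement TTTCNNTTTC, the core letters of the interferon-stimulated response element. The 4 stretches below are shown because they hold the matches of 5 members, with matches in capitals and each stretch written 5′ to 3′ on the strand of the gene named first.
Ifit1 and Ifit1bl2, chr19:34640744-34640888, plus strand: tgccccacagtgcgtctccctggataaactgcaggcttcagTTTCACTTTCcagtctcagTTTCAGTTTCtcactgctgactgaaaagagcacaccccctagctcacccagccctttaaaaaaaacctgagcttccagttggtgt
Ifit3, chr19:34583329-34583528, plus strand: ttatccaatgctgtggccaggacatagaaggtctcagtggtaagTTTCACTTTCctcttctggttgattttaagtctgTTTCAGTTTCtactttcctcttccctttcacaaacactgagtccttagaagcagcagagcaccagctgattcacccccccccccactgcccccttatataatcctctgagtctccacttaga
Ifit3b, chr19:34607757-34607956, plus strand: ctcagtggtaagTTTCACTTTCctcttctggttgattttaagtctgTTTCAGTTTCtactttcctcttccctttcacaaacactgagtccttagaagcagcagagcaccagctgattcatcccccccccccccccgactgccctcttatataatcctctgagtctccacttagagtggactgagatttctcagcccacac
Ifit1bl1, chr19:34601969-34602168, minus strand: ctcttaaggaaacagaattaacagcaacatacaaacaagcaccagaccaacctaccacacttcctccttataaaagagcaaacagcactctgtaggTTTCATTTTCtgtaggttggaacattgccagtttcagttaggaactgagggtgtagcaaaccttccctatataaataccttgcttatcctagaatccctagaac

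Ifit1 and Ifit1bl2 start head to head, with 145 bases between the first base of one and the first base of the other, so the first stretch lies before both genes. Its 2 matches are 10 bases long and begin 104 and 85 bases before the start of Ifit1. Read on the other strand, the same letters begin 70 and 51 bases before the start of Ifit1bl2. Ifit3 and Ifit3b carry the same pair of matches, at 156 and 122 bases before the start of Ifit3 and at 188 and 154 bases before that of Ifit3b. In the 250 bases before their starts, 218 bases of this pair could be aligned and 217 of them were identical. Ifit1bl1 had 1 match, 104 bases before its start. A second listed window of Ifit1bl1 also held 1 match, while the second listed window of Ifit1bl2 and both windows of Ifit2 held none. The motif was found in 3.44% of 32851 windows. Counted per gene, with any window, it was found in 3.99% of 27025 genes, in 4.03% of the tested genes that have a window, and in 35 of 63 genes (55.6%) of a list of other interferon-stimulated genes. These are matches of letters and binding was not measured.

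**Figure D1:**
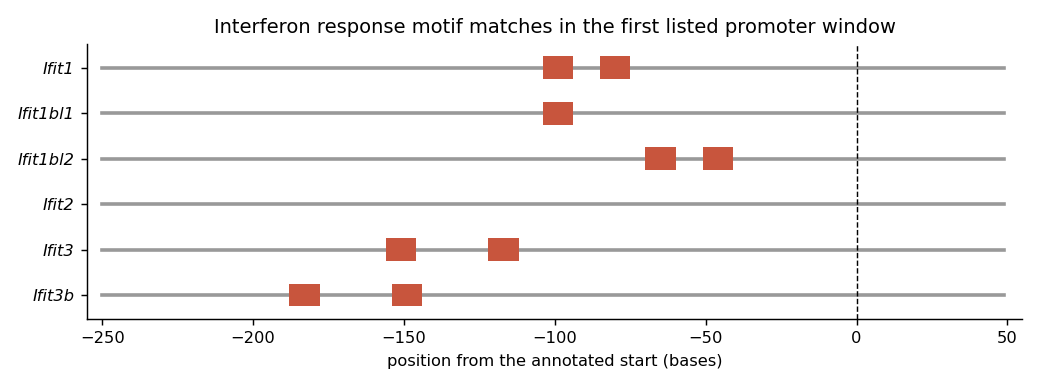
Matches to the response element core (boxes) in the first listed window of each IFIT gene, plotted by position in bases from the annotated start (dashed line). Ifit1, Ifit1bl2, Ifit3 and Ifit3b have 2 matches each, Ifit1bl1 has 1 and Ifit2 has none.

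The members differ in how well reads can tell them apart. Ifit3 and Ifit3b are near-copies, with 99.1% identity over 1212 coding bases. Of all words of 50 bases in the annotated Ifit3 transcript, 51.2% also occur in Ifit3b, so the split of reads between these genes is uncertain. Ifit1bl1 and Ifit1bl2 had 87.5% coding identity, and 6.45% and 9.34% of their words occur in another member. Ifit1 shared 7.13% of its words and Ifit2 shared none. How reads that fit several genes were counted is not given in the sources used here, nor whether counting used strand.

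The deposited values are TPM (reads divided by gene length, then scaled to the same total in each library). Whole reads could be recovered from the digits of the values, and the libraries held between 15496262 and 17893558 of them. The length behind each IFIT value was the span of the gene with its introns, so a gene with a long intron, such as Ifit2 (span 25726 bases, exons 3927), has a low TPM for its reads. The targeted gene, listed under its older symbol Ddx58, was at 65.1 ± 2.0 TPM in the 5 WT libraries and 33.3 ± 2.04 TPM in the 4 Rig1 KO libraries (SD), so the Rig1 KO libraries kept 51.1% of its WT level. The groups did not overlap, in the direction of the labels. T cell identity genes were abundant in all libraries (10 markers, summed TPM 5509 to 6292 in WT and 7474 to 8212 in Rig1 KO). The sums did not overlap, and 9 of the 10 markers were called higher in Rig1 KO in the test described below. Of all tested genes 33.5% were called higher. The median ratio scaling factor was 1.009 and 1.003 in Rig1 KO replicates 1 and 2 but 1.116 and 1.098 in replicates 3 and 4, so results were also computed without either pair.

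All 6 IFIT genes passed the test as higher in the Rig1 KO libraries, and 5 of them did so under every alternative tried. Genes that reached 1 TPM in 4 or more libraries were tested with limma on log2(TPM + 1), and p-values were adjusted by Benjamini-Hochberg across the 10540 genes, with a threshold of 0.05. All adjusted p-values below come from this test, and all log2 fold changes are Rig1 KO minus WT on that scale. All 6 members passed the filter through their WT libraries alone. Of all tested genes 45.7% were called, 33.5% as higher and 12.2% as lower in Rig1 KO, so a single call is a common event in this comparison, and the sizes of the changes say more than their number. The median log2 fold change was 0.83 over the 6 members and 0.13 over all tested genes. Other scaling took up this general shift and left the members higher, with a median of 0.71 over the members after median ratio scaling, against 0.01 over all genes.

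Ifit1bl1, which encodes an Ifit1-like protein found in mice, had the largest change of the family. Its TPM was 52.8, 55.9, 55.6, 56.9 and 48.4 in WT 1 to 5, and 175, 138, 222 and 200 in Rig1 KO 1 to 4. Every Rig1 KO library was above every WT library, with a gap of 80.8 TPM between the groups, and Rig1 KO 2 was the lowest of its group. Between 613 and 833 reads stood behind the WT values and between 1854 and 2585 behind the Rig1 KO values. The mean rose 3.41-fold (log2 fold change 1.73, SE 0.119, adjusted p = 1.77e-06). By log2 fold change it ranked 37 of 10540 tested genes, with 0.342% of them above it.

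Ifit1, the member best known for binding RNA with an unmethylated cap or a 5′ triphosphate, had TPM values of 24.3, 24.5, 23.7, 25.9 and 20.03 in WT 1 to 5. They were 48.9, 36.9, 55.6 and 52.0 in Rig1 KO 1 to 4. The groups did not overlap, and again WT 5 and Rig1 KO 2 were the lowest of their groups. The mean rose 2.04-fold (log2 fold change 0.99, SE 0.115, adjusted p = 7.42e-05).

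Ifit1bl2, the neighbour that starts head to head with Ifit1, was the least expressed member. Its TPM was 1.20, 1.65, 2.33, 1.62 and 0.936 in WT 1 to 5, and 2.61, 2.58, 2.07 and 2.10 in Rig1 KO 1 to 4. WT 3 lay above Rig1 KO 3 and 4, so the groups overlapped, and the values rested on 31 to 83 reads in WT and 63 to 99 in Rig1 KO. The mean rose 1.51-fold (log2 fold change 0.41, SE 0.151, adjusted p = 0.0458). This call was lost in 18 of 22 alternatives (adjusted p = 0.011 to 0.905), among them median ratio scaling (0.33), the replicate block (0.32, adjusted p = 0.128) and leaving out any 1 library other than WT 3. It turned to -0.0353 when mean B cell marker expression was a covariate.

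Ifit2, whose protein can bind AU-rich RNA, had the smallest change of the other 5 members. Its TPM was 25.1, 23.4, 28.1, 28.2 and 27.0 in WT 1 to 5, and 38.2, 36.2, 46.5 and 38.4 in Rig1 KO 1 to 4. The groups did not overlap, with a gap of 7.93 TPM, and Rig1 KO 3 was the highest library. The mean rose 1.51-fold (log2 fold change 0.57, SE 0.0844, adjusted p = 0.000336).

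Ifit3, a binding partner of other IFIT proteins, had the highest TPM of the family in WT. Its TPM was 87.4, 77.4, 79.9, 91.1 and 71.4 in WT 1 to 5, and 123, 120, 151 and 145 in Rig1 KO 1 to 4. The groups did not overlap, and Rig1 KO 3 and 4 were higher than Rig1 KO 1 and 2. The mean rose 1.66-fold (log2 fold change 0.72, SE 0.0907, adjusted p = 0.000119).

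Ifit3b, the near-copy of Ifit3, had TPM values of 12.3, 14.9, 13.5, 16.0 and 15.9 in WT 1 to 5 and 28.8, 23.3, 38.4 and 26.1 in Rig1 KO 1 to 4. The groups did not overlap, and Rig1 KO 3 stood highest. The mean rose 2.01-fold (log2 fold change 0.94, SE 0.133, adjusted p = 0.000249), on 101 to 140 reads in WT and 185 to 268 in Rig1 KO. Because reads of Ifit3 and Ifit3b may be exchanged, their summed TPM was also compared. The sum was 95.9 ± 7.59 TPM in the 5 WT libraries and 164 ± 20.6 TPM in the 4 Rig1 KO libraries (SD), a 1.71-fold difference with no overlap between the groups.

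A two-sided exact permutation test on TPM gave p = 0.00794 for each member other than Ifit1bl2, the lowest value that 5 against 4 libraries allow, and p = 0.0397 for Ifit1bl2. In 5 of 6 members the groups did not overlap, with Rig1 KO higher. The same held for 28.0% of all tested genes, and 38.1% had groups apart in either direction. Without Rig1 KO 3 and 4, or without Rig1 KO 1 and 2, the same 5 members passed the test.

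**Figure D2:**
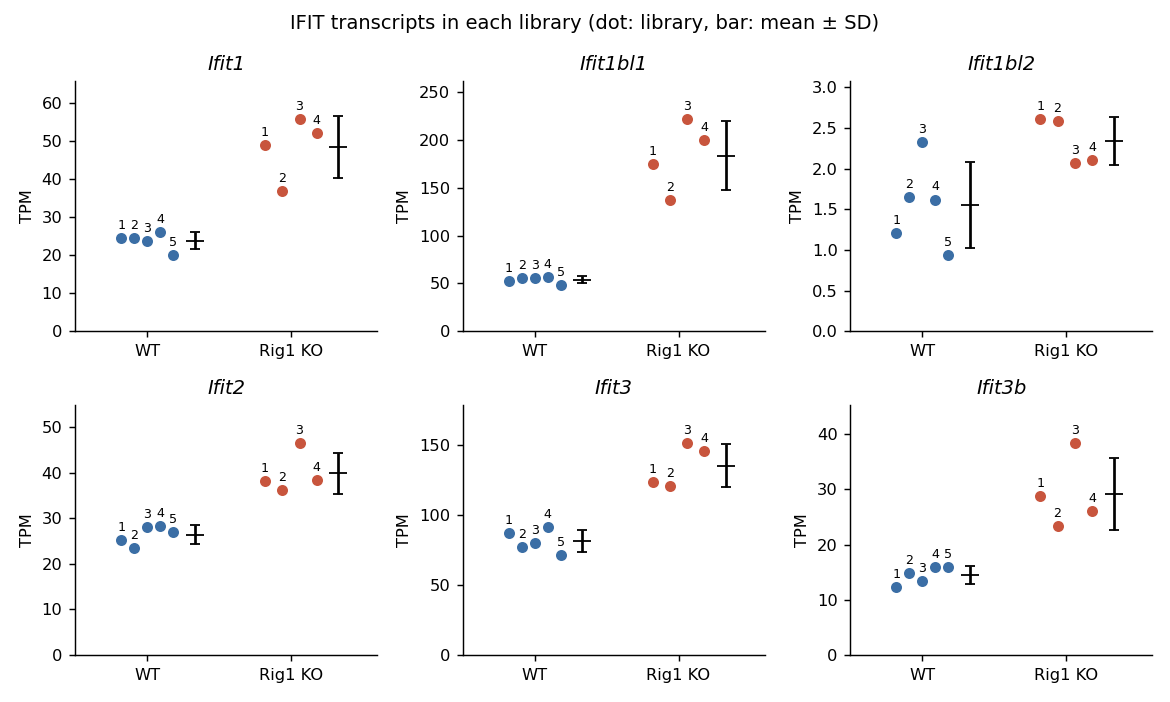
TPM of each IFIT gene in the 5 WT and 4 Rig1 KO libraries (dots, numbered by replicate), with the mean and SD of each group (bars). The groups are apart for 5 genes and overlap for Ifit1bl2, where WT 3 (2.33) lies above Rig1 KO 3 and 4.

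Levels of the 6 genes were compared with one another as RPKM, the recovered reads per kb of annotated exon scaled to the library's recovered reads, since TPM here uses spans with introns. On this per-length scale Ifit3 (22.1 ± 2.09) and Ifit1bl1 (19.7 ± 1.45) led in WT, and their ranges overlapped. Ifit2 followed at 15.8 ± 1.03, Ifit1 at 7.45 ± 0.743, Ifit3b at 3.60 ± 0.392 and Ifit1bl2 at 0.994 ± 0.342 (SD, n = 5), with no overlap between these neighbours. In Rig1 KO Ifit1bl1 came first at 63.6 ± 9.54 and Ifit3 second at 34.9 ± 2.19 (SD, n = 4). Their ranges did not overlap there, and the order of the other 4 genes was as in WT. Whether intron reads were counted is not given in the sources used here, so these levels assume that nearly all reads came from exons. They also divide by the full exon length, although 51.2% of Ifit3 words and 44.5% of Ifit3b words occur in the other gene. For Ifit1bl1 6.45% occur in another member. If reads that fit several genes were dropped, Ifit3 and Ifit3b are set too low, so their places in the order are uncertain.

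Summed over the 6 genes, the per-length level was 69.7 ± 4.2 in WT and 144 ± 14.9 in Rig1 KO, a 2.06-fold difference. The makeup of this sum shifted toward Ifit1bl1. It held 28.3 ± 1.08% of the family signal in WT (27.5 to 30.1%) and 44.1 ± 2.35% in Rig1 KO (40.7 to 45.8%). The shares of Ifit3 (31.7 ± 1.66% in WT, 24.4 ± 1.59% in Rig1 KO) and Ifit2 (22.7 ± 1.79% and 15.8 ± 1.29%) were lower in all 4 Rig1 KO libraries, with no overlap between the groups. Ifit1 held 10.7 ± 0.576% and 9.99 ± 0.541%, and its range overlapped between the groups, as did those of Ifit3b and Ifit1bl2. The ratio of each member to the sum of the other 5 was tested over the libraries (two-sided, 6 ratios). The exact permutation test gave p = 0.00794 for Ifit1bl1, Ifit2 and Ifit3, 0.111 for Ifit1, 0.159 for Ifit1bl2 and 0.333 for Ifit3b, unadjusted. Shares within a family are linked, since a gain of one member lowers the others. The sizes of the shares also depend on how the reads common to Ifit3 and Ifit3b were counted, which is not known.

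**Figure D3:**
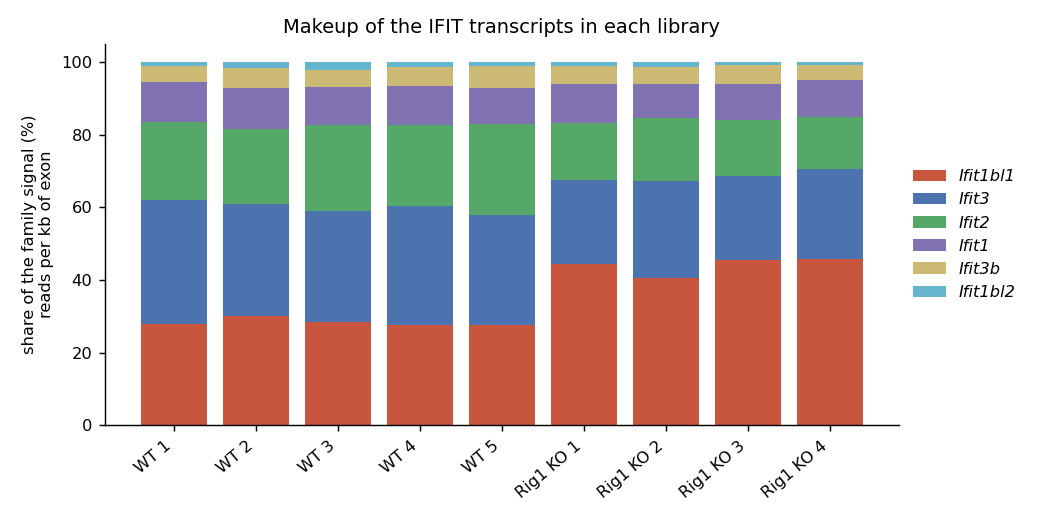
Share of each IFIT gene in the summed family signal (percent, from reads per kb of exon) in each library. The Ifit1bl1 share lies between 27.5 and 30.1% in WT and between 40.7 and 45.8% in Rig1 KO.

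The ratio of Ifit1bl1 to Ifit1 separated the groups with little spread, at 2.66 ± 0.119 in WT and 4.42 ± 0.203 in Rig1 KO (SD over 5 and 4 libraries). By contrast the ratio of Ifit3 to its near-copy Ifit3b overlapped between the groups, at 6.24 ± 1.06 in WT and 5.20 ± 0.830 in Rig1 KO. So did the ratio of Ifit1 to its head-to-head neighbour Ifit1bl2, at 8.09 ± 2.20 and 10.3 ± 2.80. The last ratio is limited by Ifit1bl2, which rests on few reads and varied more in both groups than read counting alone gives.

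Other interferon-stimulated genes moved in the same direction with a smaller median. Of 71 tested genes of this list, 48 rose (67.6%), 2 fell and 21 did not pass. Among all tested genes 33.5% rose and 12.2% fell. The median log2 fold change of the list was 0.38 (0.13 over all tested genes). After median ratio scaling 39 of the list rose and 2 fell, while 23.7% of all tested genes rose. Of the 71 genes, 32 had a larger log2 fold change than Ifit1bl2, and none had a larger one than Ifit1bl1. The place of Ifit1bl2 depends on the scale, since adding 1 to its low TPM shrinks its change (0.41, but 0.62 with a pseudocount of 0.1). The immunity-related GTPase genes Iigp1 and Irgm2 rose from 17.8 ± 2.85 to 53.7 ± 11.3 TPM and from 14.3 ± 0.942 to 41.3 ± 5.41 TPM. Usp18, which encodes a brake on the type I interferon receptor, rose from 3.35 ± 0.714 to 10.9 ± 2.35 TPM. The Schlafen genes Slfn1 and Slfn2 and the ubiquitin ligase gene Trim21 were the other members of the list with the smallest p, and rose 2.12-, 1.96- and 1.57-fold. The antiviral GTPase gene Mx1 rose 2.33-fold, the oligoadenylate synthetase gene Oas1a 2.05-fold and Ly6a, a surface marker of activated T cells, 2.61-fold. The 2 that fell were Ifi27l2a (303 ± 32.2 to 219 ± 26.9 TPM) and Nt5c3, a nucleotidase gene (17.9 ± 1.67 to 14.5 ± 1.76 TPM). The Nt5c3 call was lost in 8 of 23 alternatives (adjusted p = 0.00148 to 0.217), among them leaving out WT 1, WT 3, WT 4, Rig1 KO 1 or Rig1 KO 2. Isg15, a ubiquitin-like modifier commonly induced with the IFIT genes, rose from 95.4 ± 15.7 to 122 ± 13.7 TPM (adjusted p = 0.0362). That call was lost in 11 of 23 alternatives (adjusted p = 0.0284 to 0.565), among them median ratio scaling, the replicate block and leaving out WT 5, Rig1 KO 1 or Rig1 KO 2.

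**Figure D4:**
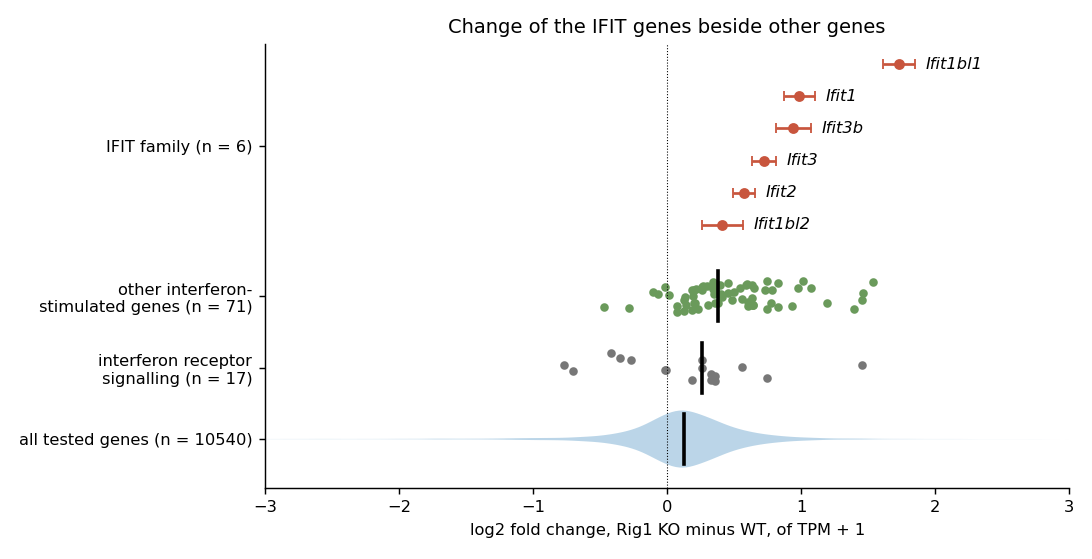
Log2 fold changes (Rig1 KO minus WT, of TPM + 1) of the IFIT genes (points with SE), of 71 other interferon-stimulated genes and 17 interferon receptor signalling genes (dots) and of all 10540 tested genes (shape, shown from -3 to 3), with medians as black bars. The IFIT genes lie between 0.41 and 1.73, and the median of all genes is 0.13.

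The genes of interferon receptor signalling, a list that also holds interferon-γ receptor and feedback genes, were split. Of its 17 genes, 9 rose (52.9%, all tested genes 33.5%), 4 fell (all tested genes 12.2%) and 4 did not pass. Median ratio scaling changed this to 6 that rose and 6 that fell, and among all tested genes to 2493 that rose and 2260 that fell. The list shares 5 genes with that of the interferon-stimulated genes. Both chains of the type I interferon receptor rose slightly, Ifnar1 from 88.7 ± 3.98 to 114 ± 13.1 TPM (adjusted p = 0.00291) and Ifnar2 from 8.77 ± 0.715 to 11.5 ± 1.39 TPM (adjusted p = 0.00861), though neither passed with the B cell covariate (adjusted p = 0.0622 and 0.1001). Ifnar2 was also lost without Rig1 KO 3 and 4 (adjusted p = 0.0939). Both chains of the interferon-γ receptor fell, Ifngr1 from 235 ± 11.3 to 184 ± 12.6 TPM and Ifngr2 from 53.6 ± 6.18 to 30.9 ± 1.34 TPM. The receptor kinase gene Jak1 rose from 125.9 ± 3.31 to 158 ± 10.9 TPM.

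The ISGF3 subunit genes Stat2 (49.2 ± 4.46 and 59.1 ± 6.97 TPM, adjusted p = 0.0392) and Irf9 (191 ± 9.93 and 218 ± 17.8 TPM, adjusted p = 0.0353) passed the test, but the calls were lost in 11 and 10 of 23 alternatives (adjusted p up to 0.358 and 0.252). Among these were median ratio scaling and leaving out WT 1, WT 2, WT 3, Rig1 KO 3 or Rig1 KO 4, and for Stat2 also Rig1 KO 1. Irf3, the factor downstream of RIG-I, rose from 128 ± 10.3 to 189 ± 5.74 TPM. Irf1, an interferon-inducible factor that binds similar DNA, fell from 452 ± 46.6 to 277 ± 20.3 TPM, and the feedback inhibitor gene Socs3 fell from 327 ± 29.8 to 245 ± 23.2 TPM.

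Transcripts of type I interferons themselves were hardly detected. Of 21 interferon genes looked up, 4 were listed, and Ifna1, Ifna7 and Ifnab had at most 2 reads in any library. Genes without a row were not analysed here. Ifng, which encodes interferon-γ, fell from 70.2 ± 11.4 to 21.4 ± 5.13 TPM (log2 fold change -1.68, adjusted p = 1.47e-05).

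Genes on either side of the IFIT group did not share its change in full. Of 7 neighbours looked up, 5 were tested, of which 2 rose and 1 fell, with a median log2 fold change of 0.15. The 40% that rose was near the 33.5% of all tested genes. Lipa, a lysosomal lipase gene next to Ifit2, went from 27.5 ± 2.86 to 34.9 ± 2.32 TPM, and the death receptor gene Fas from 12.6 ± 1.35 to 17.2 ± 0.918 TPM. Both rose, though neither passed with the B cell marker covariate (adjusted p = 0.114 and 0.0578), and Lipa was also lost without Rig1 KO 3 and 4 (adjusted p = 0.0512). The smooth muscle actin gene Acta2 fell, from 1.41 ± 0.362 to 0.505 ± 0.279 TPM. On the side of Ifit1, the coenzyme A synthesis gene Pank1 (1.32 ± 0.250 and 1.42 ± 0.214 TPM) and the kinesin gene Kif20b (9.51 ± 0.843 and 10.8 ± 1.90 TPM) did not pass. Ch25h, itself interferon-inducible, had at most 3 reads per library in WT and was listed at 0 in all Rig1 KO libraries.

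Genes of cap methylation and cap recognition lay near the other genes in their median change. Of 9 tested, 4 rose, 1 fell and 4 did not pass, and the median log2 fold change was 0.15, close to that of all genes. Cmtr2, a cap methyltransferase gene, rose from 10.7 ± 1.15 to 16.2 ± 2.30 TPM and Rnmt, which methylates the cap guanosine, from 23.8 ± 1.16 to 31.4 ± 2.67 TPM. The Cmtr2 call was lost with the B cell covariate (adjusted p = 0.0782). The translation factor genes Eif4e and Eif3e and the cap-binding gene Ncbp2 changed by 0.37, -0.15 and 0.26 on the log2 scale. Eif3c did not pass (0.15, adjusted p = 0.0995). Without Rig1 KO 3 the number called was 3 in place of 5, and the Eif3e call was lost without any 1 library other than WT 5. The Ncbp2 call was lost in 6 of 23 alternatives (adjusted p = 0.0158 to 0.297), among them median ratio and quantile scaling and leaving out Rig1 KO 3. That of Eif4e was lost without Rig1 KO 3 and 4 (adjusted p = 0.156).

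Markers of other spleen cells were present in all groups, and their counts are to be read against the 33.5% of all tested genes called higher and the 12.2% called lower. In a bulk sample a change per cell and a change in the mix of cells cannot be told apart. The sum of 10 B cell markers found was 162 to 1123 TPM in WT and 93.2 to 194 TPM in Rig1 KO, and 7 of 8 tested fell. The 8 natural killer cell markers summed to 50.8 to 159 TPM in WT and 237 to 259 TPM in Rig1 KO, and 6 rose. For monocytes and macrophages, which respond strongly to interferon, 11 markers summed to 448 to 1023 TPM in WT and 909 to 1039 TPM in Rig1 KO, and 3 of 11 rose, a share below that of all genes. Dendritic cell markers (8 found) summed to 20.1 to 78.0 TPM in WT and 62.4 to 72 TPM in Rig1 KO, where 1 of 6 tested rose, also below that of all genes. The sum of 10 neutrophil markers was 76.4 to 367 TPM in WT and 59.4 to 108 TPM in Rig1 KO, and 2 of 9 fell. The 6 basophil and mast cell markers rose, from 11.8 to 46.6 TPM in sum in WT to 208 to 406 TPM in Rig1 KO, and all 4 platelet markers tested fell (180 to 242 and 31.2 to 39.3 TPM in sum). The sum of 6 red cell markers was 74.0 to 197 TPM in WT and 176 to 319 TPM in Rig1 KO, and 3 of 4 tested rose. For the CD4 T cell list of 3 markers the sum was 19.5 to 66.0 and 20.3 to 23.4 TPM, and 1 fell. None of these markers was at 0 in every library, and their part in the IFIT result was not tested beyond the B cell covariate. With that covariate Ifit1, Ifit1bl1, Ifit2, Ifit3 and Ifit3b passed the test. As 7 of 8 B cell markers tested fell in Rig1 KO, that fit cannot tell genotype and B cell content apart. It holds no marker of the other cell types.

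Within the Rig1 KO group the IFIT genes and the other interferon-stimulated genes were highest and lowest on average in the same libraries, while in WT their lowest libraries differed. Rig1 KO 3 was the highest Rig1 KO library for 5 of 6 members and Rig1 KO 2 the lowest for 5 of 6. On average over the members Rig1 KO 3 lay 0.20 above and Rig1 KO 2 lay at -0.20 from the group mean on the log2 scale, and the 71 other interferon-stimulated genes averaged 0.18 and -0.18 in the same libraries. In WT, WT 4 was highest for 5 of 6 members and WT 5 lowest for 4 of 6. The family averaged 0.11 in WT 4 and -0.13 in WT 5, whereas the other interferon-stimulated genes averaged 0.11 in WT 4 and had their lowest mean, -0.08, in WT 1. Ifit1bl2, which rests on few reads, had Pearson coefficients from -0.265 to 0.0587 with the other members over the 9 libraries. Pairs of the other members ran from 0.312 (Ifit3 with Ifit3b) to 0.951 (Ifit1 with Ifit1bl1). After median ratio scaling these 2 pairs were at 0.0293 and 0.934, so not all members moved closely together. The mean of all tested genes moved with the family average in part (0.07 in Rig1 KO 3 and -0.06 in Rig1 KO 2), and after median ratio scaling the family averages were 0.12 and -0.14.

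**Figure D5:**
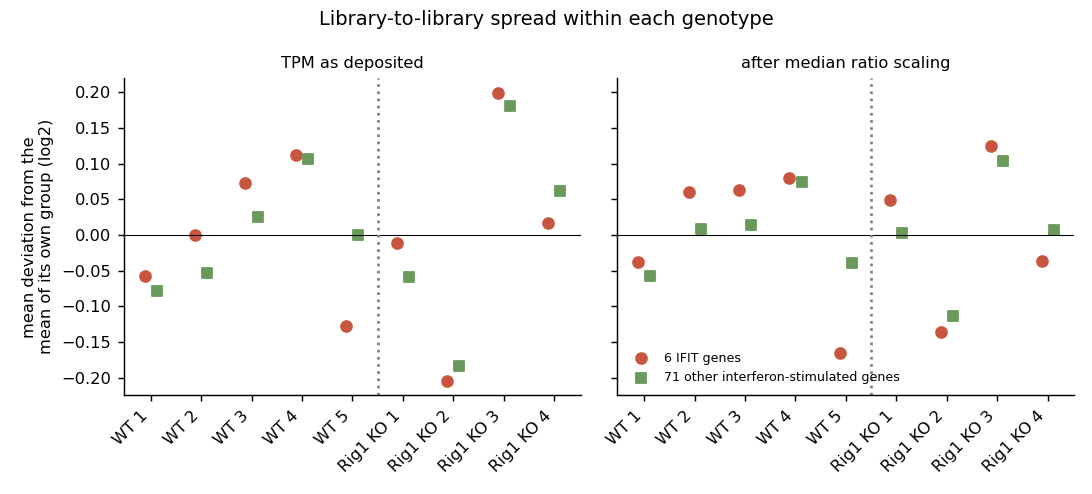
Mean deviation (log2) of the 6 IFIT genes (circles) and of 71 other interferon-stimulated genes (squares) from the mean of their own group in each library, on the deposited scale (left) and after median ratio scaling (right). Rig1 KO 3 is highest and Rig1 KO 2 lowest among the Rig1 KO libraries for both sets and under both scalings.

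The genes most like the family in these deviations were Xaf1, Golga1, Herc6, Ccdc66, Trap1 and Eif2s1, out of 8193 genes whose mean TPM was 5 or more. Their Pearson coefficients with the family average over the 9 libraries ran from 0.954 to 0.964, given as a description of libraries that share scaling. With median ratio scaling Trap1 was at 0.727 and Herc6 at 0.867, and the others ran from 0.937 to 0.949. Xaf1 and Herc6 are themselves interferon-stimulated. Between the genotypes Xaf1, Golga1, Ccdc66 and Trap1 passed the limma test as higher in Rig1 KO. Herc6 (log2 fold change 0.27, adjusted p = 0.115) and Eif2s1 (0.11, adjusted p = 0.255) did not pass. The median coefficient was 0.691 over 65 other interferon-stimulated genes and 0.318 over all 8193. After median ratio scaling these medians were 0.513 and 0.0367.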

How the data were processed

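Poly(A) RNA libraries of splenic CD8+ T cells were grouped by sample title into 5 WT and 4 Rig1 KO. The authors deposited TPM values, 1 column per library per the file headers. The submitters' processing notes name fastp (read trimming), featureCounts (counting) and mm39 (GRCm39). Versions, aligner and annotation are not given in the sources used here. Reads were recovered from the TPM digits for 100% of genes (relative tolerance 2e-12), as lower bounds, since common divisors are lost. For 99.1% of 11300 genes the implied length was within 1% of the span with introns. Log2(TPM + 1) was tested in limma 3.58.1 (R 4.3.3), two-sided, trend on and without covariates. Fits and read recovery were tested on simulated data.

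The members and lists were chosen with earlier results of these data known. Named genes were the members, Ddx58, up to 6 genes per list with the smallest p and called genes against a list's direction. A gene that this rule names is not reported here. Ifnar1, Ifnar2, Jak1, Stat2, Irf9, Isg15, Mx1, Oas1a and Ly6a, and Ch25h, Ifna1, Ifna7 and Ifnab, were added after their values were seen. Alternatives covered pseudocounts (0.1, 0.5), filters (none, mean TPM of at least 5), scaling, a replicate block, a B cell covariate (10 markers), no trend, and left-out libraries.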

Additional observations from a re-analysis of the deposited data

Results flagged for a closer look

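Of 96 groups of library values checked over the genes named (chance marks about 1 in 20), 2 held a library far from the others of its group, and neither was an IFIT gene. Slfn1 in WT 1 was at 266 TPM, against 236 to 244 TPM in the other WT libraries. Usp18 in Rig1 KO 3 was at 14.4 TPM, against 9.18 to 10.03 TPM in the other Rig1 KO libraries.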

How the results depend on the processing

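Ifit1, Ifit1bl1, Ifit2, Ifit3 and Ifit3b kept their direction and passed the test in all 23 alternatives, 2 of which (without Rig1 KO replicates 3 and 4, or 1 and 2) were chosen after seeing the data. Their lowest log2 fold changes were 0.82, 1.51, 0.45, 0.58 and 0.80, and their highest adjusted p 0.0102. Ifit1bl2 could not be tested at a mean TPM of at least 5. Its log2 fold change no longer passed with a pseudocount of 0.1 (0.62), no filter (0.41), median ratio scaling (0.33), quantile scaling (0.37), recovered reads scaled to their total (0.46), the replicate block (0.32), without WT replicates 4 and 5 (0.31), without Rig1 KO replicates 3 and 4 (0.52) or without Rig1 KO replicates 1 and 2 (0.30). With the B cell covariate it was -0.0353. Leaving out 1 library gave 0.32 to 0.51. The count of members called was 5 or 6 throughout.

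Of all tested genes 4817 were called, 2914 with the B cell covariate and 4036 to 4813 without 1 library. Of the called genes 73.2% were higher in Rig1 KO, against 52.5% after median ratio scaling, 53.8% after quantile scaling and 61.5% for recovered reads scaled to their total. With the B cell covariate 1 neighbour of the IFIT group was called. For the cap genes the number called was 2 with that covariate, 2 without Rig1 KO replicates 3 and 4, and 3 to 5 without 1 library. The cause of these changes was not tested. Uncalled genes that changed sign were Kif20b (-0.0044 under quantile scaling, -0.0409 without Rig1 KO replicates 3 and 4), Pank1 (-0.00556 under median ratio scaling, -0.0380 without Rig1 KO replicates 3 and 4, and -0.00577 to 0.104 without 1 library) and Eif2s1 (-0.00808 under median ratio and -0.00374 under quantile scaling). Same-numbered libraries did not deviate together (correlations from -0.0996 to 0.0972, and 1 of 4 Rig1 KO libraries correlated best with its own number). The values thus gave no sign that the numbers are a pairing, though correlations of so few libraries cannot exclude one. The replicate block called 4782 genes. Depth limits Ifit1bl2, with at most 99 reads per library.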
